A study of Mus musculus with 8 samples.

Results

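Imprinted genes are transcribed mainly from the copy inherited from 1 parent, and 51 of them were followed in cortex and hippocampus of Tet1 KO and WT mice. They were chosen by name from well-known imprinted loci, and each was read from the brightest array probe that carries its symbol. The array names 49 of the 51, through 80 probes, and 24 of the 49 have several probes. Snurf and Rian are not among the symbols of the array. Of the 49, 44 passed the filter on dim probes and were tested among 16774 genes, and 35 of these were well above background in all 8 samples. Peg10, Slc22a3, Rtl1, Phlda2 and Calcr were not well above background in both samples of any group and were not tested. By the parental copy usually transcribed in mouse, 23 of the 51 were placed in a paternal group, 25 in a maternal group, and Grb10, Ddc and Casd1, whose expressed copy depends on tissue or isoform or was not assigned, in neither.

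Imprinting rests on DNA methylation that is set in 1 parental germ line, survives fertilisation and is copied at each cell division, so that a differentially methylated region controls a cluster of neighbouring genes. Many of these clusters hold a long noncoding RNA transcribed from 1 copy, such as H19 and Meg3, and protein-coding genes transcribed from the other. Tet1 encodes a dioxygenase that oxidises 5-methylcytosine, a first step of active demethylation, and is known from mouse germ cells for a part in erasing imprints before new ones are set. In the brain, imprinted genes act on growth, neuronal development and feeding, and some, such as Ube3a and Igf2, are imprinted or freed from imprinting only in certain cell types. An array that measures summed RNA of both copies does not show which copy was read.

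There were 4 groups of 2 samples: Tet1 KO cortex, WT cortex, Tet1 KO hippocampus and WT hippocampus, all from naive mice in standard housing, unstimulated, with 129 and C57BL6 as the genetic background, from total RNA with an input of 0.5 µg. The labels give no age, no sex and no description of the Tet1 allele, nor is it stated that replicates, or tissues of 1 number, come from different or shared animals. The p-values therefore cover the spread between these samples alone, which may be technical. Each array carried KO in Cy5 and WT in Cy3. A probe that takes up 1 dye better therefore shifts KO over WT on every array alike, and dye and genotype cannot be told apart. Cortex over hippocampus was taken within 1 dye.

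Of all spots, 66.6% to 67.2% were well above background in the KO channels and 49.7% to 51.7% in the WT channels, and none was saturated. All 3 Tet1 probes carried signal in KO. The brightest, on chromosome 10 at 62274448 to 62274507 (mm9), had log2 KO over WT of -0.18, -0.20, -0.23 and -0.10, another was below 0 on all 4 arrays, and the last, dim in every WT sample, was above 0 on all 4. A probe outside the deleted part checks nothing, and which part was deleted is not stated. Of 9 tested cortex markers, 6 were called higher and 1 lower in KO cortex than in KO hippocampus, and 7 higher and 1 lower in WT. The one lower in both was Etv1. Of 9 tested hippocampus markers, 8 were called lower in cortex in each genotype, and 1, Wfs1, was called higher in KO cortex. Markers of choroid plexus, the secretory epithelium of the ventricles, did not follow genotype alike in both tissues, nor tissue alike in both genotypes. Their summed linear signal over 14 genes was 286907 and 185114 in KO cortex, against 164521 and 37602 in WT cortex, and 28414 and 41626 in KO hippocampus, against 29654 and 426922 in WT hippocampus.

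The probes below measured the members whose KO over WT is described in most detail, Ndn because it was called and Meg3 and Mirg because more than 1 probe along their RNAs gave the same pattern across arrays. All are 60 bases, from the array's files, on the strand the files give as +, at mm9 positions.
Ndn A_52_P451644, chr7:69493847-69493906: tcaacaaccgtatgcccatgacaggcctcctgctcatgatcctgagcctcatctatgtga
Meg3 A_52_P196568, chr12:110799558-110799617: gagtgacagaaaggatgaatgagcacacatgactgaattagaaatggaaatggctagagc
Meg3 A_51_P455997, chr12:110809678-110809737: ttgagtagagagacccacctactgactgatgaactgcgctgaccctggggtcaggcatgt
Mirg A_55_P2336173, chr12:110979653-110979712: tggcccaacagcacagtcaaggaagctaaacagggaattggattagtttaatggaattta
Mirg A_66_P121059, chr12:110987569-110987628: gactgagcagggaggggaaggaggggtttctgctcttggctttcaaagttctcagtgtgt

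Of the 51 genes, 42 have an entry in the RefSeq promoter table, with 63 start sites. Cdkn1c, H19, Impact, Klf14, Nap1l4, Peg10, Rtl1, Sgce and Trappc9 have none there. The 250 bases before these starts held a median of 10 CG dinucleotides, the sites at which DNA methylation is written, against a median of 6 over all 32851 such windows of the table. The hexamer TGCCGC, which ZFP57 binds when its CG is methylated, was found on either strand in 14.3% of the imprinted windows and in 8.68% of all windows, which describes the letters and not a bound site. The windows of 3 genes called between genotypes or tissues are shown on the + strand of GRCm38.p6, with each CG in capitals.
Ndn, chr7:62348027-62348276: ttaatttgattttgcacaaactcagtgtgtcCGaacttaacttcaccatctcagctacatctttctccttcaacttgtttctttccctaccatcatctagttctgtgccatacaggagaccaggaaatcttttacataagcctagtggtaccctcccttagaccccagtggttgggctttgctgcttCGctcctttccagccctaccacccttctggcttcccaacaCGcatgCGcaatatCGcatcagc
Nnat, chr2:157559828-157560077: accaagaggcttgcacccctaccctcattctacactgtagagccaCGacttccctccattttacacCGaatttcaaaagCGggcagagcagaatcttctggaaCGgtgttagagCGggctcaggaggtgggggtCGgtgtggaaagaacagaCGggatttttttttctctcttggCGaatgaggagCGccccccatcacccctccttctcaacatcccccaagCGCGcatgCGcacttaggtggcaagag
Htr2a, chr14:74640624-74640873: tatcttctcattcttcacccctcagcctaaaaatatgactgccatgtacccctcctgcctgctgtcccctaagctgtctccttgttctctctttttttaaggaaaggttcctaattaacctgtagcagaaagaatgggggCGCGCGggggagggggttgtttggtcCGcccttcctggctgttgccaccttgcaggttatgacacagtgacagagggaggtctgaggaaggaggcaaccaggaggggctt
Ndn's window holds 5 CG, Nnat's 12 and Htr2a's 4, so the 3 span both sides of the median of all windows. None of the 3 holds TGCCGC.

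Tet1 KO was set against WT in each tissue to ask whether imprinted RNAs differ between samples labelled KO and WT. The imprinted genes stayed close to the array as a whole. In cortex the median log2 KO over WT of the 44 tested genes was 0.08, against 0.04 over all 16774 genes, with 27 above 0 (58.6% of all genes were) and 17 below. In hippocampus it was 0.01, against 0.02 over all genes, with 25 above 0 (54.6% of all genes were) and 19 below. No imprinted gene was called in cortex, where 0.0596% of all genes were, and none in hippocampus, where 0.0179% were. At an unadjusted p under 0.05, limma marked 9 imprinted genes in cortex and 5 in hippocampus, of 44, against 21.2% and 23.7% of all genes.

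With both tissues averaged, 2 of the 44 were called, Ndn lower and Klf14 higher in KO, where 10.9% of all genes were called, 7.12% higher and 3.78% lower. The median was 0.02, against 0.03 over all genes, and 24 of the 44 were above 0, against 56.6% of all genes. At an unadjusted p under 0.05 there were 9 of the 44, against 33.8% of all genes. By parental copy, 20 tested paternal genes had a median of 0.09 and 21 tested maternal genes one of 0.01. In cortex alone the medians were 0.13, with 15 of 20 above 0, and -0.01, with 10 of 21 above 0, and in hippocampus both were 0.01. On all 4 arrays, KO was higher for Blcap, Cd81, Dlk1, Igf2r, Inpp5f, Klf14, Mkrn3, Peg12 and Zim1, and lower for Ndn and Tssc4. Of all genes, 28.1% were higher and 17.6% lower on all 4 arrays. Klf14, Mkrn3 and Zim1 passed the filter through KO alone, so a higher KO value of theirs is no independent result. Of these 11, only Blcap, Dlk1, Igf2r and Ndn kept their direction under all 4 other scalings run. With median centring in place of loess, the means of Inpp5f, Klf14, Mkrn3, Peg12 and Zim1 were below 0 and that of Tssc4 was above 0, and with the scanner's processed signals that of Cd81 was below 0.

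**Figure D1:**
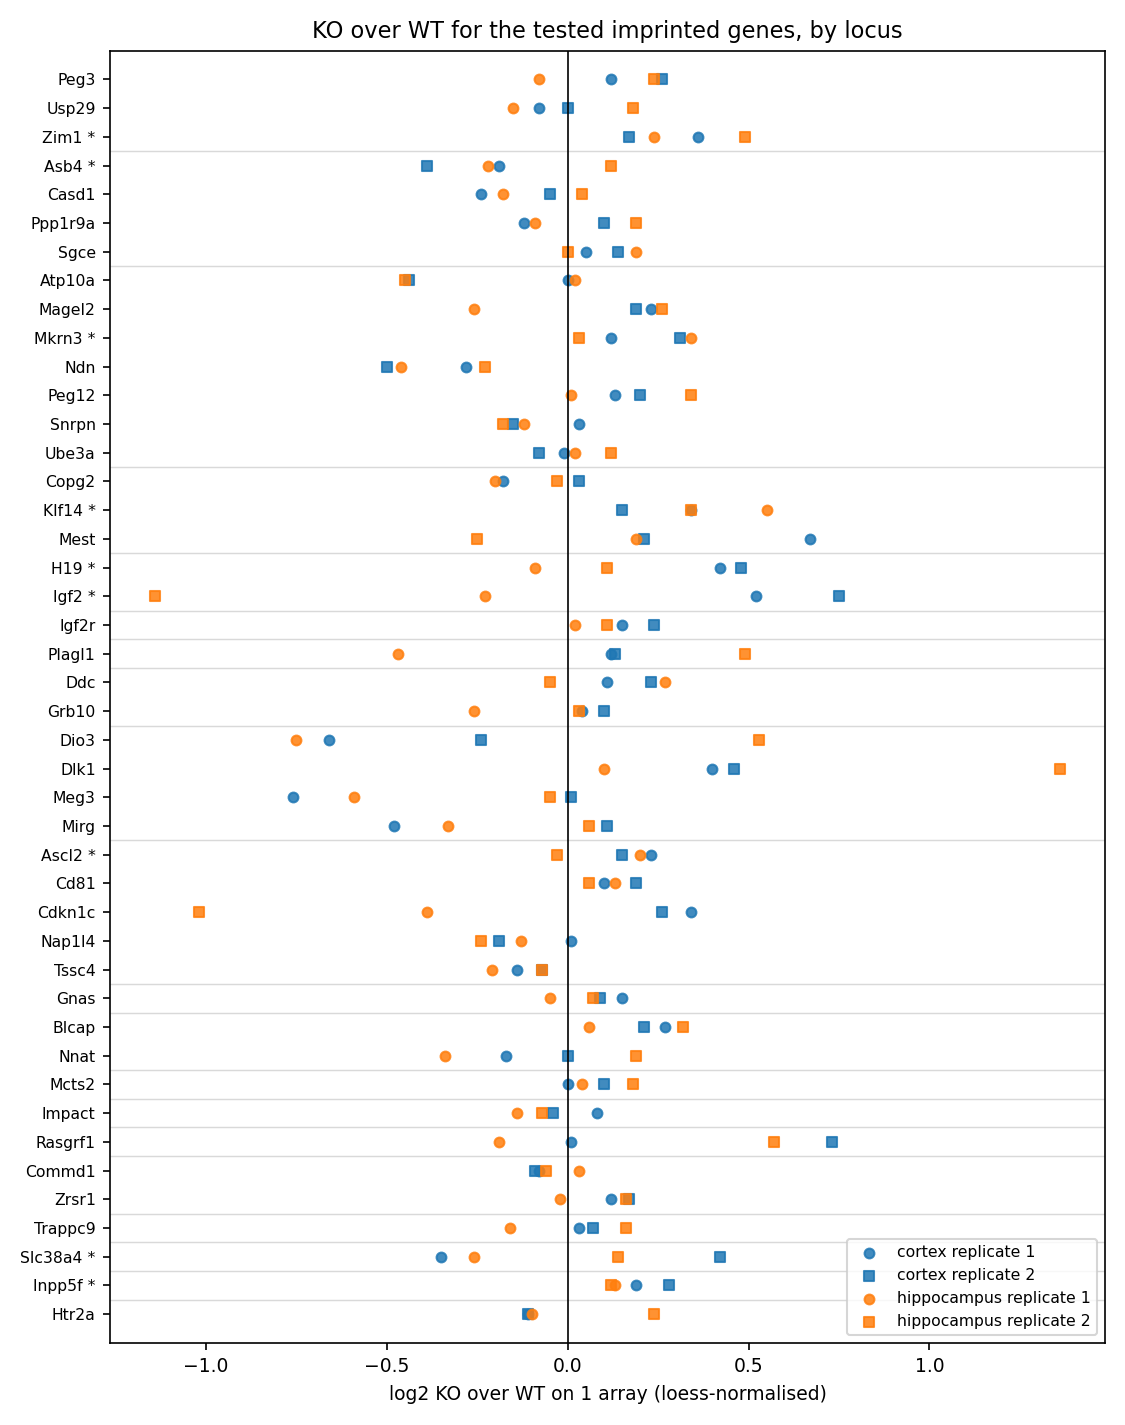
Log2 KO over WT (horizontal axis) of the 44 tested imprinted genes, ordered by locus (grey lines part loci), with a point for each of the 4 arrays and a star beside genes not well above background in all 8 samples. Most points lie within 0.5 of 0, Igf2 and Cdkn1c have cortex points above 0 and hippocampus points below, and Ndn is below 0 on all arrays.

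The Snrpn-Ube3a locus on chromosome 7 is the mouse counterpart of the region of Prader-Willi and Angelman syndromes. Ndn, in this locus, encodes necdin, a MAGE family protein that restrains proliferation and promotes neuronal differentiation and survival. Its log2 signals were 12.92 and 12.91 in KO cortex, against 13.19 and 13.42 in WT cortex, and 13.07 and 13.34 in KO hippocampus, against 13.53 and 13.57 in WT hippocampus. The KO samples lay below both WT samples of the same tissue, without overlap. Log2 KO over WT was -0.28 and -0.50 in cortex and -0.46 and -0.23 in hippocampus, and averaged -0.37 ± 0.07 over both tissues, 1.29-fold lower in KO (adjusted p = 0.0444). In single tissues the differences of -0.39 ± 0.10 and -0.35 ± 0.10 had adjusted p-values of 0.147 and 0.146. Leaving out any 1 array, keeping outlying backgrounds, or using processed signals or median centring ended the call, with adjusted p-values up to 0.202, and every difference stayed below 0, from -0.45 to -0.13.

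No other gene of the locus was called. Atp10a, a phospholipid flippase gene, had log2 KO over WT of 0.00 and -0.44 in cortex and 0.02 and -0.45 in hippocampus, a mean of -0.22 ± 0.11 (adjusted p = 0.249), so that its replicates differed more than its tissues. Magel2, another MAGE gene beside it, had a mean log2 KO over WT of 0.10 ± 0.10 and Peg12 one of 0.17 ± 0.07. Mkrn3, which encodes a ring finger protein that restrains the onset of puberty, was well above background in all KO samples and in no WT sample. Mkrn3's measured differences, 0.21 ± 0.10 for cortex and 0.19 ± 0.10 for hippocampus, were not called (limma, adjusted p = 0.319 and 0.341). Mkrn3 passed the filter through KO alone, so a higher KO value is no independent result, and no fold is given. The mean over both tissues turned to -0.52 with median centring. Snrpn, which encodes a spliceosomal protein, was read by 3 bright probes with means of -0.11, 0.29 and 0.00, so its probes disagree by more than its difference from WT. Ube3a, the ubiquitin ligase lost in Angelman syndrome and silenced on the paternal copy in neurons, had a mean of 0.01 ± 0.05.

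Klf14, a zinc finger transcription factor of the Mest locus, is known for maternal expression and was the other called gene. Its log2 signals were 7.45 and 7.33 in KO cortex, against 7.11 and 7.18 in WT cortex, and 7.01 and 7.27 in KO hippocampus, against 6.46 and 6.93 in WT hippocampus. It was well above background in all 4 KO samples and in no WT sample, so WT had only a bound, and no fold is given. Klf14 passed the filter through KO alone, so a higher KO value is no independent result. The measured difference was 0.35 ± 0.06 (adjusted p = 0.0439) and turned to -0.70 (adjusted p = 0.000375) with median centring in place of loess. Of 13 alternatives, 3 kept the call, 9 ended it in the same direction and 1 turned it. Zim1, a maternally expressed zinc finger gene of the Peg3 locus at a like level, had 0.32 ± 0.07 (adjusted p = 0.0542) and turned to -0.99 (adjusted p = 0.000267). Zim1, too, passed the filter through KO alone.

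Without a call in either tissue, the smallest p-values in cortex belonged to H19, Ndn and Inpp5f. H19, the maternal noncoding RNA of the Igf2 locus, had 0.45 ± 0.08 (adjusted p = 0.101), was well above background only in KO cortex, and was at -0.93 with median centring. It thus passed the filter through KO cortex alone, so its higher KO value is no independent result. Inpp5f, an inositol phosphatase gene with a paternal isoform in brain, had 0.24 ± 0.06 (adjusted p = 0.161) and was at -0.38 with median centring. In hippocampus they belonged to Klf14, Cdkn1c and Zim1, at 0.45 ± 0.09 (adjusted p = 0.103), -0.70 ± 0.16 (adjusted p = 0.117) and 0.37 ± 0.10 (adjusted p = 0.134). Klf14 and Zim1 were at -0.70 and -0.84 there with median centring, and both passed the filter through KO alone.

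Igf2 and Cdkn1c showed opposite signs in the 2 tissues. Igf2, the paternally expressed insulin-like growth factor that drives fetal growth, is made in adult brain mainly by choroid plexus and leptomeninges. Its log2 signals were 8.29 and 7.88 in KO cortex, against 7.77 and 7.13 in WT cortex, and 7.03 and 7.20 in KO hippocampus, against 7.26 and 8.34 in WT hippocampus. KO cortex lay above WT cortex on both arrays and KO hippocampus below WT hippocampus, while WT hippocampus spanned more than 1 log2 unit between its samples. In WT, 1 of 2 samples of each tissue was not well above background, so Igf2 passed the filter through KO alone. The cortex value was at -0.01 with median centring. Cdkn1c, a maternally expressed inhibitor of cyclin-dependent kinases that opposes growth, had 11.70 and 11.12 in KO cortex, against 11.36 and 10.86 in WT cortex, and 9.36 and 10.13 in KO hippocampus, against 9.75 and 11.15 in WT hippocampus.

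The difference between tissues of log2 KO over WT was 1.33 ± 0.32 for Igf2, 1.01 ± 0.23 for Cdkn1c and 0.44 ± 0.11 for H19. None passed the adjustment (limma, unadjusted p = 0.0107, 0.00819 and 0.0122, adjusted p = 1 for each), and no gene of the array did, with 4.47% of all genes at an unadjusted p under 0.05 and 3 of the 44 imprinted genes. Without replicate 2 of hippocampus, Igf2 was at 0.87 and Cdkn1c at 0.69. H19, which passed the filter through KO cortex alone, was at -0.01 when outlying backgrounds were kept. Opposite signs on both arrays of each tissue were shown by 3 of the 44, Igf2, Cdkn1c and Ube3a, and by 5.61% of all genes.

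Markers of choroid plexus and leptomeninges were set beside these ratios. All 14 choroid plexus markers were higher in KO on both cortex arrays, 8 were higher on array 1 and 0 on array 2 of hippocampus, with medians of 0.54, 1.92, 0.04 and -2.80. Of 14 leptomeningeal markers, 14 and 10 were higher in KO on the cortex arrays and 1 on each hippocampus array, with medians of 0.37, 0.15, -0.69 and -1.42. Their summed signal was 34689 and 31509 in KO cortex, against 28189 and 28519 in WT cortex, and 24906 and 36653 in KO hippocampus, against 38055 and 61388 in WT hippocampus. Their part in the ratios of Igf2, Cdkn1c, H19 and Mest was not tested, and in these tissue pieces fewer cells of a type and less RNA per cell cannot be told apart. Thalamic markers also stood apart on array 2 of hippocampus, with a median of -1.13, against -0.11 to -0.03 on the others.

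**Figure D2:**
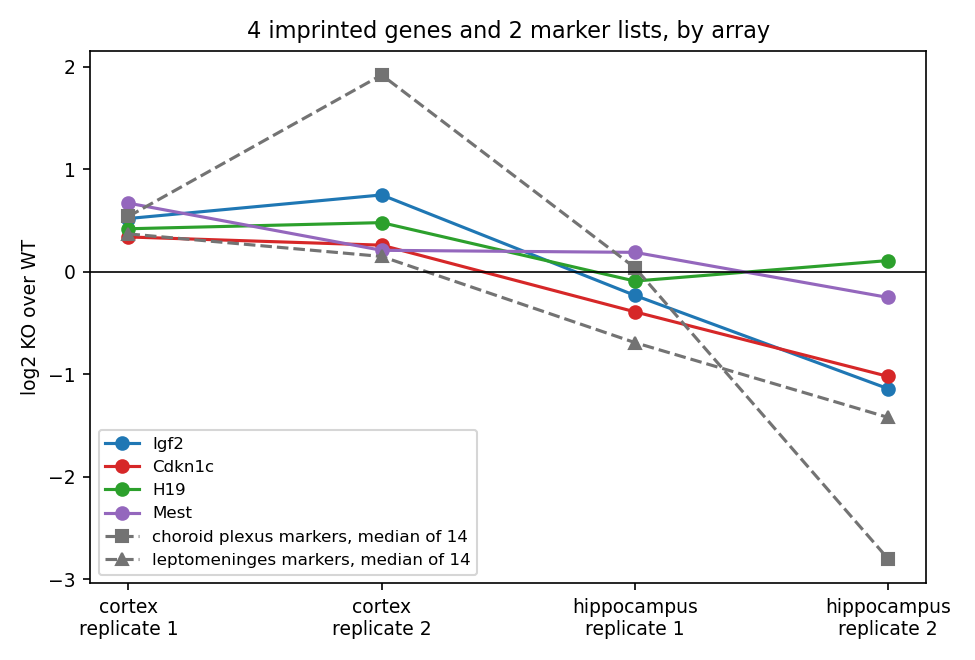
Log2 KO over WT (vertical axis) of Igf2, Cdkn1c, H19 and Mest on the 4 arrays (horizontal axis), with the medians of 14 choroid plexus and 14 leptomeningeal markers as dashed lines. Igf2 and Cdkn1c are above 0 on both cortex arrays and below 0 on both hippocampus arrays, and lowest on array 2 of hippocampus, where both marker medians are lowest too.

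Mest, a paternally expressed gene of the hydrolase fold family, had log2 KO over WT of 0.67 and 0.21 in cortex and 0.19 and -0.25 in hippocampus. Its other probes, at 0.81, 0.09, 0.49 and -0.25 and at 0.30, 0.05, 0.14 and -0.01 in the same order of arrays, differed in size. Replicate 1 was above replicate 2 in each tissue with every probe. The cortex value of 0.44 ± 0.16 had an adjusted p of 0.229.

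At the Dlk1-Dio3 locus on chromosome 12, log2 KO over WT of the maternal noncoding RNAs Meg3 and Mirg split by replicate number. Meg3, a nuclear noncoding RNA abundant in neurons, had log2 KO over WT of -0.76 and 0.01 in cortex and -0.59 and -0.05 in hippocampus with its brightest probe. Another Meg3 probe had -0.49 and 0.46 in cortex and -0.32 and 0.10 in hippocampus. Replicate 1 was the lower with both probes in both tissues. The share of all genes with the same order of replicates in both tissues was not counted. Mirg, the host transcript of a microRNA cluster further along the locus, had -0.48 and 0.11 in cortex and -0.33 and 0.06 in hippocampus. Its other probe had -0.40 and 0.41 in cortex and -0.21 and -0.04 in hippocampus.

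Rasgrf1, on chromosome 9, split the same way. This paternally expressed exchange factor for Ras couples glutamate receptors to ERK signalling. Its brightest probe had 0.01 and 0.73 in cortex and -0.19 and 0.57 in hippocampus, and its other probe 0.11 and 1.04 in cortex and 0.29 and 0.93 in hippocampus. Replicate 2 was the higher in both tissues with both probes. Means over both tissues were -0.35 ± 0.16 for Meg3 (adjusted p = 0.205) and 0.28 ± 0.18 for Rasgrf1 (adjusted p = 0.320). With the replicate number as a block, 4 imprinted genes were called in place of 2, Klf14, Meg3, Ndn and Rasgrf1, while calls over all 16774 genes went up to 2472, against 1829. The labels do not say that a number marks an animal. Strictly opposite signs in the 2 replicate numbers were shown by Mirg, Nnat, Ppp1r9a and Slc38a4, 4 of 44, against 7.93% of all genes.

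**Figure D3:**
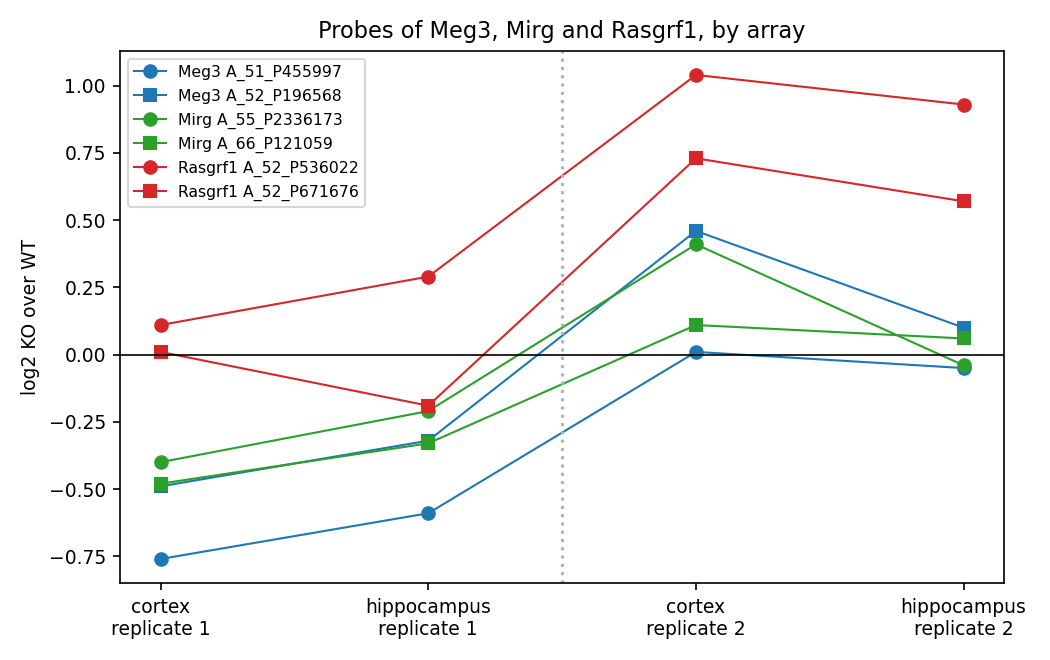
Log2 KO over WT (vertical axis) of the described probes of Meg3, Mirg and Rasgrf1, with the arrays ordered by replicate number (horizontal axis, dotted line between numbers). Each of the 6 lines is lower on both arrays of replicate 1 than on both arrays of replicate 2.

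Of the protein-coding genes of the same locus, Dlk1 encodes a transmembrane inhibitor of differentiation related to Notch ligands, and had 0.40 and 0.46 in cortex and 0.10 and 1.36 in hippocampus, a mean of 0.58 ± 0.21 (adjusted p = 0.137). Its second probe had 0.73 on array 2 of hippocampus. Dio3, the deiodinase that inactivates thyroid hormone, had -0.66 and -0.24 in cortex and -0.75 and 0.53 in hippocampus, a mean of -0.28 ± 0.23 (adjusted p = 0.426). For both genes, too, replicate 1 lay below replicate 2 in each tissue, an order not counted over all genes.

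Of the other loci, Gnas, the G protein subunit that activates adenylyl cyclase, had 0.07 ± 0.05 with its brightest probe (adjusted p = 0.389). A second bright probe, placed by the files on NM_019690, had 0.26 and 0.45 in cortex and 0.31 and 0.46 in hippocampus, a mean of 0.37. Blcap, the maternal partner whose intron holds Nnat, had a mean of 0.21 ± 0.06 (adjusted p = 0.0903) and Igf2r, the receptor that clears IGF2, one of 0.13 ± 0.05 (adjusted p = 0.137). Plagl1, a zinc finger gene of an imprinted gene network, was at 0.12 and 0.13 in cortex but at -0.47 and 0.49 in hippocampus with its brightest probe. Another bright probe had -0.37 and 0.61 in hippocampus. A further one, also well above background in every sample, had 0.22 and 0.20 there, so its probes disagree.

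Cortex was set against hippocampus to show which imprinted RNAs mark 1 tissue. In KO, 3 of the 44 were called, Nnat and Dlk1 lower and Htr2a higher in cortex, where 14.8% of all genes were called, 7.54% higher and 7.29% lower. In WT, 3 were called, Nnat and Ascl2 lower and Htr2a higher in cortex, where 15% of all genes were, 7.2% higher and 7.77% lower. The median log2 difference was -0.07 in KO, against -0.01 over all genes, and -0.09 in WT, against -0.03 over all genes. Genes above 0 numbered 19 of 44 in KO and 12 of 44 in WT, against 46.9% and 44.8% of all genes. At an unadjusted p under 0.05 there were 12 in KO and 11 in WT, against 28.3% and 28.9% of all genes. Of the 20 tested paternal genes, 12 were below 0 in KO and 16 in WT, with medians of -0.11 and -0.19, and of the 21 tested maternal genes 11 and 14 were, with medians of -0.07 in each genotype. The tissues did not overlap for 23 genes in KO and 24 in WT, against 60.1% and 56% of all genes, and for 13 in both genotypes in the same direction, against 38.6% of all genes. Of these 13, 10 were lower in cortex, a split by direction that was not counted over all genes.

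**Figure D4:**
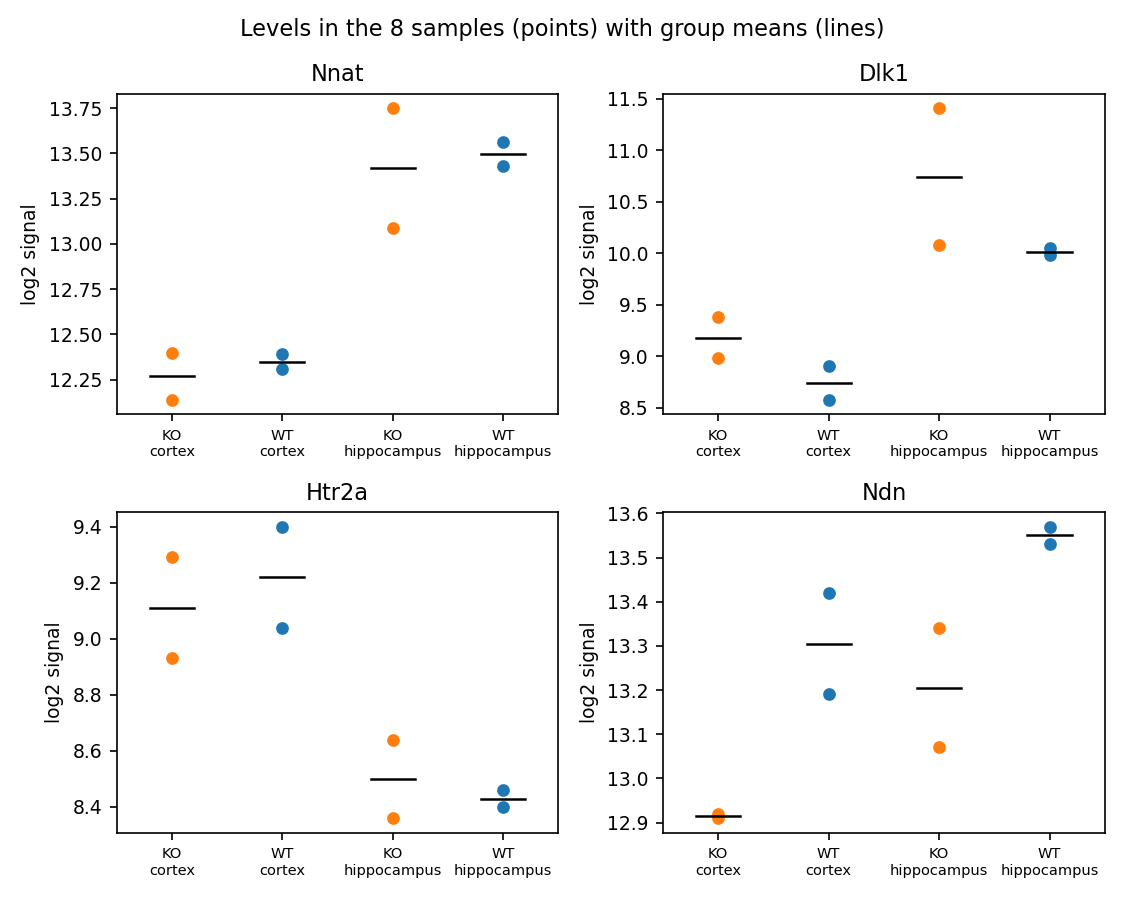
Log2 signal (vertical axes, each gene on its own range) of Nnat, Dlk1, Htr2a and Ndn in the 8 samples, as points by group, with a line at each group's mean. Nnat, Dlk1 and Ndn are lower and Htr2a is higher in cortex than in hippocampus of the same genotype, without overlap.

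Nnat, neuronatin, is a paternally expressed membrane proteolipid gene of developing and mature neurons. Its log2 signals were 12.14 and 12.40 in KO cortex, against 13.09 and 13.75 in KO hippocampus, and 12.31 and 12.39 in WT cortex, against 13.43 and 13.56 in WT hippocampus. All cortex samples lay below all hippocampus samples. It was 2.23-fold lower in KO cortex (log2 difference -1.15 ± 0.20, adjusted p = 0.0101) and 2.21-fold lower in WT cortex (-1.14 ± 0.20, adjusted p = 0.0106). Its second probe gave -1.20 in KO and -1.16 in WT. Leaving out either cortex array ended both calls, with adjusted p-values from 0.0858 to 0.145 and differences from -1.28 to -1.03.

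Dlk1 had 8.98 and 9.38 in KO cortex, against 10.08 and 11.41 in KO hippocampus, and 8.58 and 8.91 in WT cortex, against 9.98 and 10.05 in WT hippocampus. The tissues did not overlap in either genotype, and replicate 2 of KO hippocampus was the highest sample. The difference was -1.57 ± 0.39 in KO (2.96-fold lower in cortex, adjusted p = 0.0379) and -1.27 ± 0.39 in WT (2.41-fold lower, adjusted p = 0.0744). The KO difference was -0.91 without replicate 2 of hippocampus (adjusted p = 0.0586) and -2.23 without its replicate 1 (adjusted p = 0.00781). The KO call ended in 7 of 15 alternatives, with adjusted p-values up to 0.279 and all differences below 0. Its second probe, not well above background in WT, gave -0.79 in KO and -0.73 in WT. Dio3 at the other end of the locus had -0.95 ± 0.32 in KO (adjusted p = 0.104) and -0.61 ± 0.32 in WT (adjusted p = 0.271), whereas Meg3 between them had -0.08 ± 0.25 and -0.03 ± 0.25 (adjusted p = 0.876 and 0.954).

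Htr2a encodes the serotonin 2A receptor, a target of hallucinogens and antipsychotics, and its imprinting varies between tissues. It had 8.93 and 9.29 in KO cortex, against 8.36 and 8.64 in KO hippocampus, and 9.04 and 9.40 in WT cortex, against 8.46 and 8.40 in WT hippocampus. It was 1.52-fold higher in KO cortex (0.61 ± 0.16, adjusted p = 0.0489) and 1.73-fold higher in WT cortex (0.79 ± 0.16, adjusted p = 0.0196). The KO call ended in 9 of 15 alternatives, among them leaving out any 1 array, and the WT call in 3 of 15, each leaving out 1 array. Adjusted p-values went up to 0.237 and all differences were above 0. Markers of striatum, which borders cortex in a dissection, moved with tissue: their summed signal was 153980 and 160900 in KO cortex, against 24530 and 34806 in KO hippocampus, and 217483 and 180690 in WT cortex, against 28925 and 33268 in WT hippocampus. Their part in the tissue differences was not tested.

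Ascl2, a maternally expressed transcription factor gene needed in the placenta, was dim. In KO it had 7.75 and 7.70 in cortex, against 8.0 and 7.97 in hippocampus (-0.26 ± 0.08, adjusted p = 0.0940). Its log2 signals were 7.52 and 7.55 in WT cortex, against 7.80 and 7.99 in WT hippocampus, where 1 of 2 samples was well above background and none was in WT cortex. The measured difference was -0.36 ± 0.08 in WT (adjusted p = 0.0324), a call that ended with 8 of 14 alternatives. As WT cortex was not well above background, no fold is given.

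Among genes not called, Cdkn1c had the largest difference in KO, 1.67 ± 0.45 (3.18-fold higher in cortex, adjusted p = 0.0501), and 0.66 ± 0.45 in WT (adjusted p = 0.385). Igf2 had 0.97 ± 0.35 in KO and -0.35 ± 0.35 in WT (adjusted p = 0.124 and 0.568). Summed choroid plexus signal was 286907 and 185114 in KO cortex, against 28414 and 41626 in KO hippocampus. In WT it was 164521 and 37602 in cortex, against 29654 and 426922 in hippocampus. Its part in these differences was not tested. Rasgrf1 had -0.63 ± 0.31 in KO (adjusted p = 0.246) and -0.81 ± 0.31 in WT (adjusted p = 0.138), and Magel2 had -0.46 ± 0.25 and -0.67 ± 0.25 (adjusted p = 0.294 and 0.131). The fitted differences of tested imprinted genes ran up to 3.18-fold between the tissues and, averaged over tissues, up to 1.5-fold between the genotypes (Dlk1, not called).

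**Figure D5:**
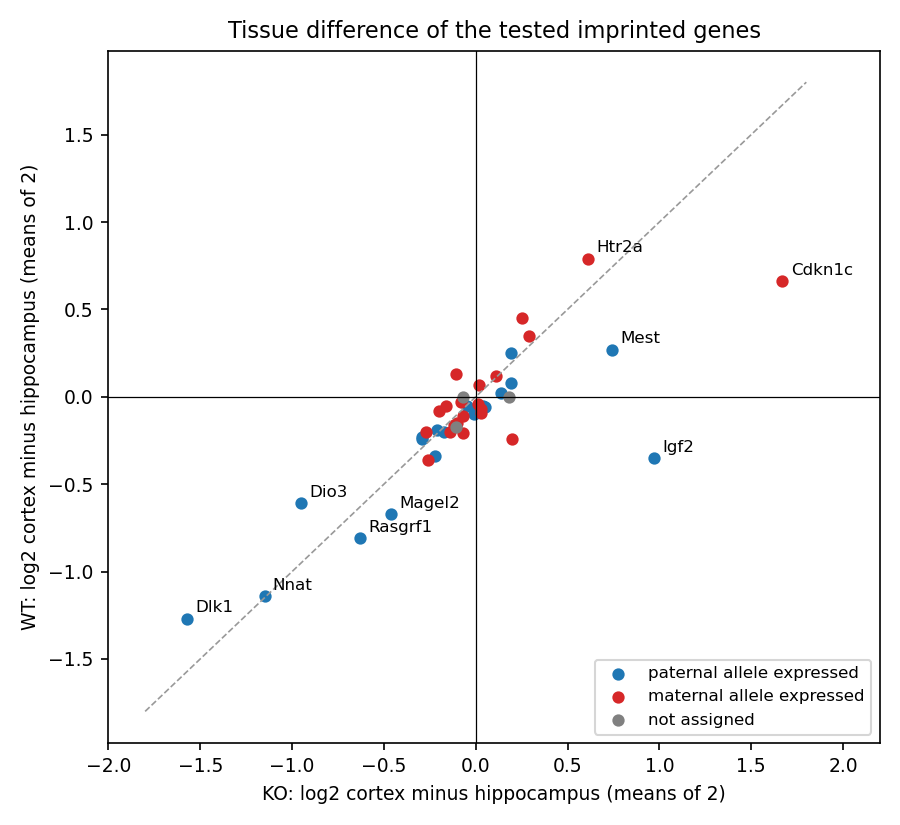
Log2 cortex minus hippocampus in KO (horizontal axis) and in WT (vertical axis) for the 44 tested imprinted genes, as differences of group means of 2 samples, coloured by the parental copy usually transcribed, with the line of equal difference dashed. Dlk1, Nnat and Dio3 lie below 0 in both genotypes, Htr2a above 0 in both, and Igf2 and Cdkn1c lie right of the dashed line.

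Genes that set, protect or erase imprints were read beside them. Of 19, 17 were tested, and with both tissues averaged 1 was higher in KO, Dnmt3l, the cofactor of germ-line methylation (0.35 ± 0.06, adjusted p = 0.0383, though not well above background in any WT sample and at -0.50 with median centring), and 1 was lower, Tdg, the glycosylase that removes oxidised methylcytosine (-0.22 ± 0.04, adjusted p = 0.0483). Dnmt3l, too, passed the filter through KO alone. Of all genes, 10.9% were called with both tissues averaged, 7.12% higher and 3.78% lower. None of the 17 was called in a single tissue, where 0.0596% of all genes were in cortex and 0.0179% in hippocampus. Tdg had log2 signals of 8.41 and 8.18 in KO cortex, against 8.66 and 8.48 in WT cortex, and 8.44 and 8.20 in KO hippocampus, against 8.59 and 8.39 in WT hippocampus, so that the genotypes overlapped in hippocampus and were apart on each array. Its call ended with outlying backgrounds kept (adjusted p = 0.221) and with the authors' deposited log2 values (adjusted p = 0.064), and its difference was -0.58 with median centring. In KO, Dnmt3l had 7.38 and 7.20 in cortex, against 7.84 and 7.95 in hippocampus, a difference of -0.61 ± 0.08 (adjusted p = 0.00432). The methylation maintenance genes Dnmt1 and Uhrf1 and the imprint keeper Trim28 were not called in any comparison.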

How the data were processed

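Cortex and hippocampus were snap-frozen and their total RNA labelled by the QuickAmp method. WT samples carry Cy3 and KO samples Cy5, per the labels' protocols. For each tissue and replicate number, the KO and the WT file hold the same bytes (4 of 4 pairs). The study is therefore 4 arrays of 2 channels, on 1 slide in 1 scan, which leaves no slide or scan batch to test, and no dyes were swapped. Intensities were deposited as written by Feature Extraction (version 10.1.1.1 per the file headers). Its log10 ratio, per the file headers, served only to check directions. A table of log2 values per channel was deposited too. Medians of its columns were 8.21 to 8.25, and its KO over WT correlated across spots at 0.938 to 0.967 with the ratios computed here. No source used here gives its centring or background correction, and the submitters' processing notes name limma without a version.

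Mean signals were corrected with normexp (offset 50, with local backgrounds marked as outlying set to the array's median), log ratios were normalised by loess (span 0.3, 1377 control spots at weight 0), and single channels by Aquantile, in limma 3.58.1. Spots of a probe were averaged, and the probe brightest over all samples stood for its gene. Of 23688 genes with a symbol, 16803 were well above background in both samples of at least 1 group, and 16774 were tested after 29 with outlying spots were left out. KO over WT was fitted on the 4 log ratios with tissue as the term (lmFit, eBayes). Cortex over hippocampus was fitted on single channels within 1 dye, with the array as a random block (correlation 0.191). Adjusted p-values are limma's with Benjamini-Hochberg adjustment over the 16774 genes, called under 0.05. The fits were tested on simulated data. Errors are standard errors of the fit with 2 samples a group, and arrays' number limits the precision. No count of reads exists for arrays, so no counting interval is given.

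The members, allele groups, loci and gene lists were chosen with earlier results of these data known, so no list is independent evidence. Statistics are given for members past the adjusted threshold, and for the 3 of smallest p where a comparison had none. Some further members, described by locus, pattern or size of difference, have statistics too, outside this rule. Other members are given by counts and ranges, or by values where a pattern is described. 1 of the probes of a member is not reported here. Upstream sequences are RefSeq's (GRCm38.p6), and probe positions are the files' (mm9). Alternatives covered the background, normalisation, filter, probe choice, variance prior, array and replicate blocks, the deposited log2 values and leaving out each array.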

Additional observations from a re-analysis of the deposited data

Results flagged for a closer look

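Igf2, Cdkn1c and Ube3a had log2 KO over WT of 1 sign on both cortex arrays and of the other sign on both hippocampus arrays. The difference between tissues was 1.33 ± 0.32 for Igf2, 1.01 ± 0.23 for Cdkn1c and -0.11 ± 0.09 for Ube3a. It was tested with limma across all genes, and the adjusted p was 1 for each of the 3 (unadjusted p = 0.0107, 0.00819 and 0.296). Over the alternatives run, the adjusted p ranged from 0.181 to 1 for Igf2 and for Cdkn1c, and the difference stayed above 0 in all of them, from 0.78 to 2.45 and from 0.69 to 1.32.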

How the results depend on the processing

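The number of imprinted genes called depended most on the normalisation of KO over WT. Median centring in place of loess called 21 in cortex and 21 in hippocampus, against 0 and 0, and 27 in the mean of both tissues, against 2. Over all genes it called 7364, 8366 and 10517, against 10, 3 and 1829, and of the last 45.1% were higher in KO, against 65.3%. With median centring these directions turned: H19 to -0.93 in cortex and -1.09 in the mean, Igf2 to -0.01 in cortex, Inpp5f to -0.38 in cortex and -0.36 in the mean, Klf14 to -0.70 in cortex, in hippocampus and in the mean, Mkrn3 to -0.52 in the mean, and Zim1 to -1.14 in cortex, -0.84 in hippocampus and -0.99 in the mean. Zim1 in cortex turned to -0.01 with processed signals, and the tissue difference of H19 turned to -0.01 with outlying backgrounds kept. In the mean of both tissues, 0 imprinted genes were called with outlying backgrounds kept and 0 with processed signals (all genes 3 and 1204). The strict filter, the intensity trend and the authors' deposited log2 values called 1 each (all genes 995 of 12763, 2265 and 2362). The mean of a gene's probes called 4 (all genes 1793). The cause was not tested. Leaving out each array in turn left 1 sample in a group, with the block correlation of the full fit, so its counts of calls are not compared here. In KO, median centring called 7, the strict filter 6 and the deposited log2 values 6 between tissues, against 3 (all genes 3063, 2212 of 12763 and 2869, against 2487). The replicate number as a block called 4 in the mean of both tissues (Klf14, Meg3, Ndn and Rasgrf1) and 5 between tissues in WT (Ascl2, Dlk1, Htr2a, Magel2 and Nnat), against 3, and left 3 in KO (all genes 2472, 2588 and 2480). The labels state no animal shared by a number, and a shared animal was not tested. Deviations of replicate 1 from 2 correlated between tissues at 0.167 for log ratios, 0.244 for KO and -0.0765 for WT. Log ratios of the 2 tissues correlated across genes at 0.638 in replicate 1 and 0.36 in replicate 2. Across tissue and number they correlated at 0.322 and 0.465, and within a tissue at 0.536 in cortex and 0.438 in hippocampus. Of 675 recomputed values of 49 gene results, 574 kept direction and side of the threshold, 47 lost and 40 gained a call in the same direction, and 14 turned. Signal over background limits the dim genes, of which 6 of the 44 were above background only in KO. These 6, Mkrn3, H19, Zim1, Asb4, Klf14 and Slc38a4, passed the filter through KO alone, so a higher KO value of theirs is no independent result. The share of such genes over the array was not counted.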

Other observations

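A second list of 29 imprinted genes, from other loci or less studied, was read in the same way, and 25 were tested. With both tissues averaged, 3 of the 25 were called, all higher in KO, where 10.9% of all genes were called, 7.12% higher. Cntn3, which encodes a neuronal contactin, had log2 signals of 11 and 11.01 in KO cortex, against 10.66 and 10.62 in WT cortex, and 10.59 and 10.70 in KO hippocampus, against 10.38 and 10.23 in WT hippocampus. The genotypes did not overlap in either tissue, the mean difference was 0.35 ± 0.06 (limma, adjusted p = 0.0409), and it stayed above 0 under the 4 other scalings, from 0.24 to 0.41. Its call ended with outlying backgrounds kept (adjusted p = 0.188) and with processed signals (adjusted p = 0.0876). Tnfrsf23, a decoy receptor gene of the Cdkn1c cluster, had 0.44 ± 0.05 (adjusted p = 0.0265) and Wt1, a zinc finger transcription factor gene, 0.47 ± 0.09 (adjusted p = 0.0465). Neither was well above background in any WT sample. Both thus passed the filter through KO alone, so a higher KO value is no independent result. With median centring they were at -0.47 and -0.60.

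Between tissues, 5 of the 25 were called higher and 1 lower in KO cortex, and 3 higher and 1 lower in WT cortex, where 14.8% and 15% of all genes were called. Dcn, which encodes the matrix proteoglycan decorin and is also on the leptomeningeal list, had 12.49 and 12.46 in KO cortex, against 13.46 and 14.36 in KO hippocampus, and 11.92 and 12.19 in WT cortex, against 13.98 and 14.08 in WT hippocampus. The log2 cortex minus hippocampus was -1.43 ± 0.26 in KO (adjusted p = 0.0127) and -1.98 ± 0.26 in WT (adjusted p = 0.00346). Of the 14 leptomeningeal markers, 8 were called higher in KO cortex and 1 lower, with a median of 0.92, and 2 lower in WT cortex, with a median of -0.33. Th, tyrosine hydroxylase, was higher in cortex by 0.95 ± 0.23 in KO (adjusted p = 0.0349) and 1.52 ± 0.23 in WT (adjusted p = 0.00550). Pde4d, a cyclic AMP phosphodiesterase gene, was higher in cortex by 0.38 ± 0.07 in KO (adjusted p = 0.0115) and 0.39 ± 0.07 in WT (adjusted p = 0.0107). The KO calls of Th and Pde4d ended with outlying backgrounds kept (adjusted p = 0.054 and 0.0567). The other calls, all higher in cortex, were Cntn3 in both genotypes and Osbpl5 and Wt1 in KO, of which Wt1 was at -0.02 with outlying backgrounds kept. The WT call of Cntn3 ended with outlying backgrounds kept, processed signals and median centring (adjusted p = 0.0811, 0.0509 and 0.051). Its KO call ended with outlying backgrounds kept (adjusted p = 0.291).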
